A study of Mus musculus with 12 samples.

Results

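The major urinary protein (Mup) genes of the mouse were followed in plucked skin through 6 members, Mup4, Mup5, Mup17, Mup18, Mup19 and Mup20, of the 20887 genes with a symbol on the array. All probes whose transcript accession belongs to one of these genes were taken, which gave 8 probes, 2 each for Mup4 and Mup20 and 1 for each of the others. The members were picked with the signal by genotype and by experiment in view, so their differences between those groups are given as descriptions. Counts of members past the threshold of the fit over all probes stand only beside the share of all probes that passed, and nothing is read from them. Expression was measured in total RNA of whole skin from 12 male mice on 12 one-colour Agilent arrays, 1 array per mouse, on day 12 after plucking. The study asked what Sox4, a transcription factor gene of the SoxC group, contributes to hair regrowth. Both genotypes shared a mixed C57Bl6/129Sv background, sex and plucking. The mice were wild type (WT), or Sox4 was conditionally deleted in their skin (cKO); the sources used here do not name the driver of the deletion. Exp 1 held 3 WT mice (72, 72 and 69 weeks old) and 3 cKO mice (72, 72 and 68 weeks old). Exp 2 held 3 WT mice (20, 19 and 18 weeks old) and 3 cKO mice (17, 18 and 16 weeks old). Age and experiment cannot be told apart, because no age was shared between experiments. The labels number the mice WT 1 to 6 and cKO 1 to 6, and mouse numbers are used below.

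Major urinary proteins are small secreted lipocalins, barrel-shaped carriers that hold volatile pheromones in a central pocket and release them slowly from urine marks. Most of the family is made in the liver of adult males, where growth hormone pulses acting through STAT5, androgens, glucocorticoids and thyroid hormone raise transcription, and some members are made in salivary, lacrimal or mammary glands. Mup20, also called darcin, is a pheromone in its own right, while Mup4 and Mup5 are known from glandular tissues. The genes lie side by side in a cluster on chromosome 4, and many differ at few positions. A probe named for 1 member can therefore read transcripts of others, and the probes are treated here as readings of the family rather than of single genes.

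How alike the genes are was visible in the bases just upstream of their starts, which are shown as background. Whether these bases bear on how the probes moved was not tested. RefSeq sequences on GRCm38.p6 covered 4 of the 6 members, each on the minus strand, and the 250 bases before each start are printed 5′ to 3′. Capitals mark TATATAA, a form of the TATA box that positions the polymerase, and AATCAATA, a form of the core bound by the liver-enriched Onecut factors.
Mup4 at chr4:59960668-59960917: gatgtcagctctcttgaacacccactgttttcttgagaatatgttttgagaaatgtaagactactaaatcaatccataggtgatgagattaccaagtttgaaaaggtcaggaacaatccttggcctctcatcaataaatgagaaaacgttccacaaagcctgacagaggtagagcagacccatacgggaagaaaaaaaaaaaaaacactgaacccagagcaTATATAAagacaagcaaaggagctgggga
Mup17 at chr4:61595833-61596082: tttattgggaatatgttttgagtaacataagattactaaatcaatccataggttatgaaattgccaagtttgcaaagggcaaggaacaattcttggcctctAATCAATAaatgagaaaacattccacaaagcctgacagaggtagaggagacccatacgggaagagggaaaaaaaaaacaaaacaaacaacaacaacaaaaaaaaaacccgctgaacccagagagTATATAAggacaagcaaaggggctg
Mup18 at chr4:61674095-61674344: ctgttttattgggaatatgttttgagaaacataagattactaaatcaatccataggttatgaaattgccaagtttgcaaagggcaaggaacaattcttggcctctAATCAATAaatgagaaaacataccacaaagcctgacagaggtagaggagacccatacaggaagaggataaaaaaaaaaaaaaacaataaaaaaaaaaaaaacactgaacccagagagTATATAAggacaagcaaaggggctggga
Mup19 at chr4:61782225-61782474: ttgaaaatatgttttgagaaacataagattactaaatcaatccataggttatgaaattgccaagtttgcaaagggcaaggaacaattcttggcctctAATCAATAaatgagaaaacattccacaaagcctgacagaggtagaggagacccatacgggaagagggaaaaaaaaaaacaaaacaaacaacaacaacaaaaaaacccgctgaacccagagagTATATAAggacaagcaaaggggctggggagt

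Aligned bases were identical at 98.77% between Mup17 and Mup19, 97.53% between Mup17 and Mup18, and 95.87% between Mup18 and Mup19. Mup4 stood further off, with 91.11% to 92.2% identity to the other 3. Mup genes outside the members could be as close, such as Mup15 to Mup17 at 100%. TATATAA was found in all 4 windows, its first base 25 to 31 bases before the start, and in 3.04% of the 32851 windows of the same length in the table. AATCAATA was found in Mup17, Mup18 and Mup19 but not in Mup4, and in 0.718% of all windows. Neither was particular to the members. AATCAATA was also upstream of Mup2, Mup6, Mup7, Mup9, Mup10, Mup11, Mup14 and Mup15, and TATATAA of Mup2, Mup3, Mup6, Mup9, Mup10, Mup15 and Mup21. Neither TTCNNNGAA, a palindrome bound by STAT factors, nor TGTTCT, a core of the element bound by steroid hormone receptors, was found on either strand of the 4 windows. Those letters were in 7.02% and 16.1% of all windows. TGTTCT was found upstream of Mup3 and Mup21, which are not members. The motifs do not overlap one another where they were found in the 4 printed windows, and each match is a match of letters only.

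Values are the processed signal of the scanner software, a background-subtracted intensity. For comparisons each array was scaled as log2 signal minus the 75th percentile of that array, called the level, and differences are on this log2 scale. Probes that the software marked well above background on 3 or more of the 12 arrays were kept, 35375 of 55681. Of the 8 Mup probes, 7 were kept, each well above background on 12 of 12 arrays and saturated on none. The remaining Mup4 probe gave 3.31 to 5.75 units, was above background on 0 of 12 arrays and is not counted further.

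Sox4 itself was lower in cKO skin on both of its 2 probes, with all 6 cKO mice below all 6 WT mice. The first probe, above background on 4 of 6 cKO arrays, differed by -5.54 (SE 0.12, limma adjusted p = 1.6e-08). The other was above background on 6 of 6 WT and 0 of 6 cKO arrays, which gives only a bound, at least 23.2-fold lower in cKO. Such a bound sets the bright mean against the detection floor of the dim arrays, the dimmest probe marked well above background on each. The share of probes above background was 53.9% to 62.6% per array, and the 75th percentiles ran from 364 to 554 units. The arrays lay on 3 slides of 6, 5 and 1 arrays, scanned on 1 day. WT mice 2, 3 and 5 and cKO mice 1, 2 and 6 were on slide 1, WT mice 1, 4 and 6 and cKO mice 4 and 5 on slide 2, and cKO mouse 3 on slide 3. No 2 arrays correlated above 0.991.

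The Mup probes were high in the young mice of Exp 2 and low in the old mice of Exp 1 in both genotypes. Of the 7 probes, 6 followed one another closely and were 8.43- to 10.4-fold higher in Exp 2, averaged over genotypes. The same 6 were also 2.39- to 2.60-fold higher in cKO than in WT skin, with the genotypes overlapping. The second Mup20 probe kept its own order of mice and was high in the 3 young cKO mice.

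Mup4 encodes a carrier known from nasal and lacrimal secretions. Its kept probe read 801, 327 and 1011 units in WT mice 1, 2 and 3 and 3630, 735 and 2561 units in cKO mice 2, 5 and 6 of Exp 1. In Exp 2 it read 3931, 9103 and 13536 units in WT mice 4, 5 and 6 and 14133, 20104 and 10174 units in cKO mice 1, 3 and 4. All 6 young mice were above all 6 old mice, although WT mouse 4 cleared cKO mouse 2 narrowly. In Exp 1 the genotypes did not overlap, and in Exp 2 cKO mouse 4 lay below WT mouse 6. The fitted difference was -3.08 (SE 0.41) for Exp 1 minus Exp 2, or 8.43-fold.

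Mup5 encodes a carrier known from salivary glands. Its signal was 137, 49.9 and 204 units in the old WT mice and 657, 136 and 474.8 units in the old cKO mice, in the same order of mouse numbers. In the young mice it was 765, 1952 and 2514 units for WT and 3097, 3880 and 2181 units for cKO. The experiments did not overlap. The 3 young cKO mice lay above the 3 young WT mice after scaling, although cKO mouse 4 was below WT mouse 6 in unscaled units. Exp 1 was lower than Exp 2 by a log2 difference of -3.26 (SE 0.42), or 9.58-fold.

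Mup17, Mup18 and Mup19 belong to the group of near-identical genes whose products fill male urine. For Mup17 the old mice read 767, 294 and 1175 units (WT) and 4404, 565 and 3410 units (cKO), against 5093, 11513 and 18471 units (WT) and 16542, 26299 and 13042 units (cKO) in the young mice. The old cKO group was the widest, since cKO mouse 5 lay among the WT mice while cKO mice 2 and 6 lay above them. The log2 difference was -3.38 (SE 0.50), a 10.4-fold higher signal in Exp 2.

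Mup18 read 1332, 547 and 2078 units in old WT mice, 8006, 1121 and 5953 in old cKO mice, 8765, 20717 and 31208 in young WT mice and 29173, 41160 and 22496 in young cKO mice. The experiments were apart by a small margin, with cKO mouse 2 just below WT mouse 4 after scaling. Exp 1 minus Exp 2 was -3.29 (SE 0.48), or 9.78-fold.

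Mup19 read 1967, 925 and 3123 units in old WT mice, 12362, 1626 and 9313 in old cKO mice, 11951, 32190 and 47306 in young WT mice and 43762, 54808 and 33915 in young cKO mice. Here the experiments overlapped, because WT mouse 4 was below cKO mice 2 and 6 after scaling. The difference was -3.22 (SE 0.49), or 9.29-fold.

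For Mup20, the gene of darcin, the first probe read 298, 138 and 507 units in old WT mice and 1617, 236 and 1153 units in old cKO mice. The young mice read 1802, 4347 and 6314 units for WT and 6920, 9133 and 4754 units for cKO. WT mouse 2 was again the lowest and cKO mouse 3 the highest, and the experiments did not overlap. The difference was -3.25 (SE 0.47), or 9.54-fold.

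The second Mup20 probe read 173, 74.9 and 268 units in old WT mice and 82.8, 357 and 198 units in old cKO mice. It read 473, 236 and 498.3 units in young WT mice and 9740, 1716 and 2510 units in young cKO mice. Only the young cKO mice stood clear of all the others, and cKO mouse 1, the highest, was 106-fold above cKO mouse 2, the lowest, on the scaled levels. Exp 1 minus Exp 2 was -2.62 (SE 0.51), or 6.13-fold, with the experiments overlapping. Both probes carry the same transcript accession, and their probe sequences were not analysed here.

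**Figure D1:**
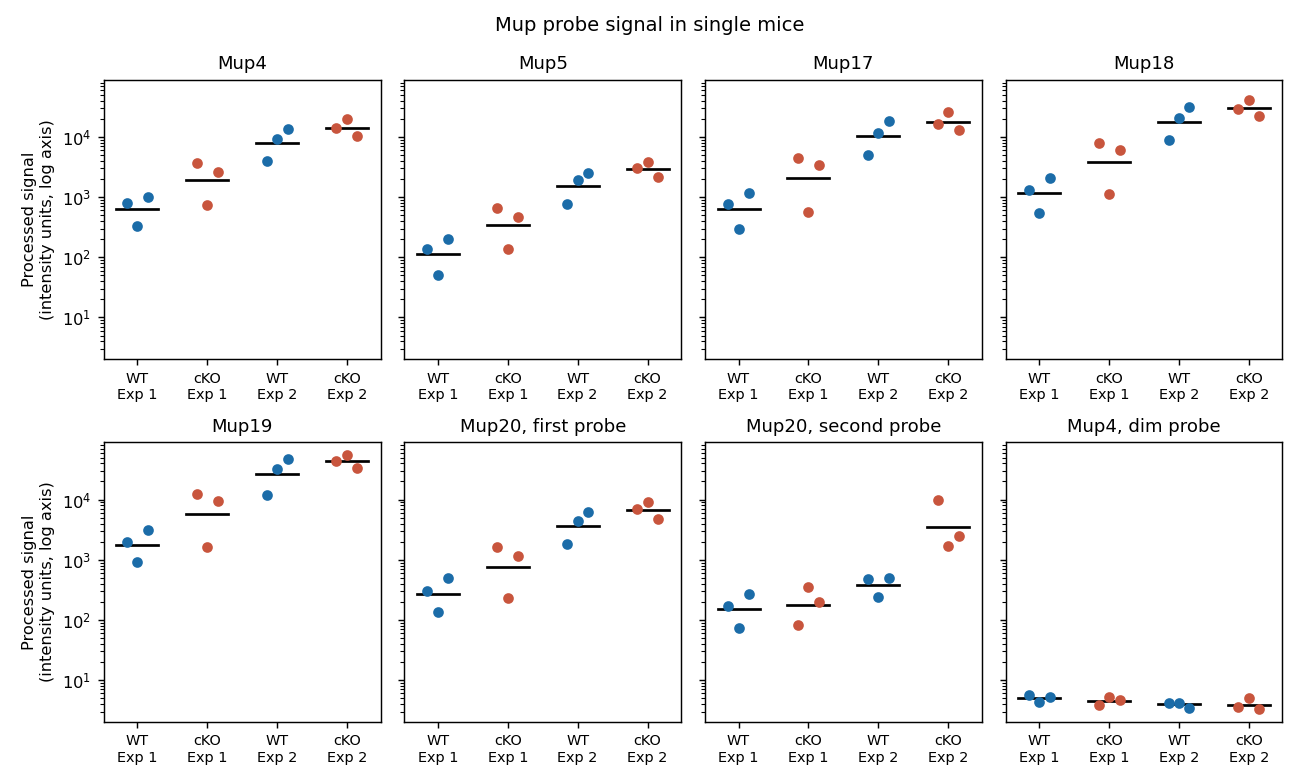
Processed signal (intensity units, log axis) of the 8 Mup probes in single mice, by genotype and experiment; each point is 1 mouse and each bar the geometric mean of 3 mice. In 6 panels the 4 groups climb from WT Exp 1 to cKO Exp 2, the second Mup20 probe is high in the 3 young cKO mice, and the dim Mup4 probe stays between 3.31 and 5.75 units.

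Over the 7 kept probes the median difference, Exp 1 minus Exp 2, was -3.25, against 0.0025 over all 35375 kept probes. In the limma fit over all kept probes 7 of 7 passed the threshold of an adjusted p under 0.05, where 19.6% of all kept probes passed in either direction and 8.25% passed as lower in Exp 1. The members were picked on this contrast. The probes ranked 148th to 253rd from the lowest of 35375 differences, so more than 100 other probes were lower in Exp 1 by a larger amount. A difference at or below -3 was found in 0.543% of kept probes, and at or below -2 in 1.42%. In 5 of 7 probes all 6 young mice were above all 6 old mice, an arrangement found in 4.37% of the 35314 probes measured on every array. Within WT mice alone, and within cKO mice alone, the experiments did not overlap in 7 of 7 probes. All 3 young mice were above all 3 old ones in 12.3% of all probes for WT and in 12.5% for cKO. Because whole skin was measured, fewer cells of a type and less RNA per cell cannot be told apart.

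**Figure D2:**
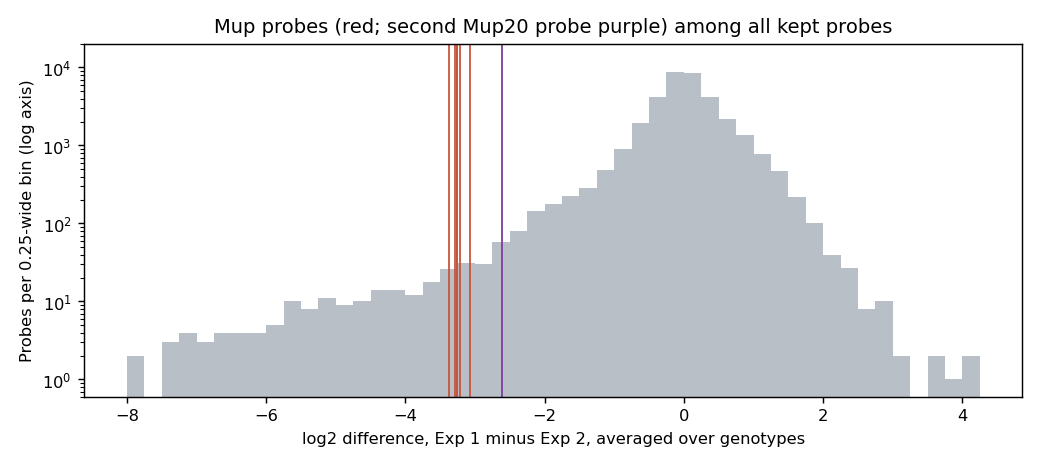
Histogram of the log2 difference, Exp 1 minus Exp 2, over all 35375 kept probes (bins 0.25 wide, log count axis), with lines at the 7 Mup probes. The Mup lines lie between -3.38 and -2.62, in the left tail, while most probes lie near 0.

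The difference between experiments was taken in each genotype separately. For the 6 concordant probes in WT the signal was 11.7- to 15.3-fold higher in Exp 2 (log2 differences -3.93 to -3.55), and in cKO it was 6.08- to 7.14-fold higher (-2.84 to -2.60). For the second Mup20 probe the sizes ran the other way, 2.41-fold in WT and 15.6-fold in cKO. In limma 6 of 7 passed in WT, where 0.834% of kept probes passed as lower in Exp 1, and 6 of 7 in cKO, where 2.65% did, counts on the contrast that chose the members. The comparison in WT and that in cKO share no mice, but the members were picked with both in view. The fit also uses 1 estimate of the spread for all groups, so the calls in WT and in cKO are not independent. The order of the group means was the same in the 6 probes, WT Exp 1 lowest, then cKO Exp 1, WT Exp 2 and cKO Exp 2. Mean levels for Mup19 were 1.89 ± 0.65, 3.78 ± 1.41, 5.71 ± 1.07 and 6.40 ± 0.23 in that order (SD, n = 3 each). For the first Mup20 probe they were -0.80 ± 0.71, 0.87 ± 1.30, 2.87 ± 0.97 and 3.71 ± 0.35 (SD, n = 3). Neighbouring groups of the same experiment overlapped in 5 of these 6 probes in each experiment.

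Within each group the 6 probes moved together from mouse to mouse. Their pairwise Pearson correlations over the 12 mice ran from 0.994 to 0.9995 (15 pairs), and from 0.976 to 0.998 after the group means were subtracted. WT mouse 2 was the lowest and cKO mouse 3 the highest mouse in 6 of 6, with a spread between them of 43.6- to 65.8-fold. In the same 6 probes cKO mouse 2 was the highest old mouse and WT mouse 4 the lowest young one. The second Mup20 probe correlated with the other 6 at 0.617 to 0.674 over the 12 mice, and at -0.363 to -0.263 after the group means were subtracted. Such correlations are descriptions of probes that share arrays, groups and, for most, nearly the same transcripts.

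**Figure D3:**
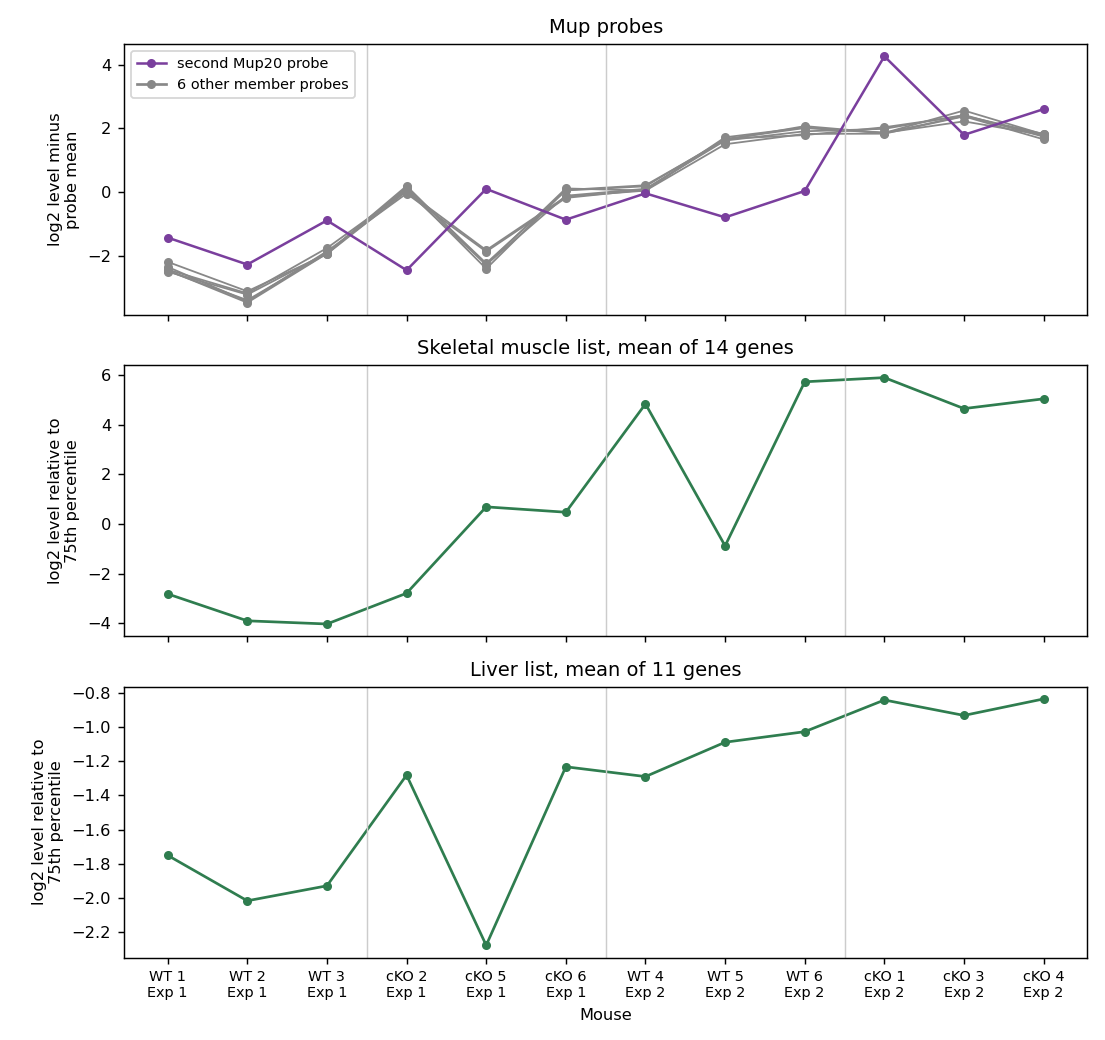
Levels in the 12 mice, ordered by group, of the 7 kept Mup probes (log2, each minus its own mean), of the skeletal muscle list (mean log2 level of 14 genes) and of the liver list (mean of 11 genes); grey lines divide the groups. The 6 concordant probes run as a single band, the second Mup20 probe departs from it at cKO mice 1, 2 and 5 and WT mice 5 and 6, and WT mouse 5 is low for muscle but not for Mup.

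Sox4 deletion is the comparison the study was built on. All 7 Mup probes were higher in cKO than in WT skin on average over the experiments, with a median of 1.32, against 0.0043 over all kept probes. For the 6 concordant probes the difference was 1.26 to 1.38 (SE 0.41 to 0.50), a 2.39- to 2.60-fold higher signal, and for the second Mup20 probe 1.81 (SE 0.51), or 3.50-fold. None of the 7 passed in the limma fit, where 0.189% of kept probes passed in either direction and 0.00565% as higher in cKO. Without adjustment 7 of 7 had a p under 0.05, as had 3565 of all 35375 probes. A difference of at least 1 was found in 1.11% of kept probes. No Mup probe had all 6 cKO mice above all 6 WT mice, as 0.0651% of probes did.

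Within Exp 1 the 6 concordant probes were 3.20- to 3.79-fold higher in cKO than in WT mice (1.68 to 1.92 on the log2 scale, SE 0.58 to 0.71). Within Exp 2 they were 1.62- to 1.88-fold higher (0.69 to 0.91). The Exp 2 values leaned on WT mouse 4, and without it they were 0.08 to 0.35. The Exp 1 values leaned on cKO mouse 5 in the other direction, and without it they were 2.36 to 2.71. That mouse had the lowest share of probes above background (53.9%) and the lowest level of the hair shaft list. The genotypes did not overlap in 1 of 7 probes in Exp 1 (Mup4), where 5.48% of probes had all 3 cKO above all 3 WT mice. They did not overlap in 2 of 7 in Exp 2 (Mup5 and the second Mup20 probe), where 3.47% did. In limma 0 of 7 passed in Exp 1 (0.0481% of kept probes; 6 of 7 at an unadjusted p under 0.05) and 0 of 7 in Exp 2 (0.0141%; 1 of 7 unadjusted).

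The second Mup20 probe differed between genotypes by 3.16 (SE 0.72), or 8.93-fold, in Exp 2 and by 0.46 (SE 0.72), or 1.37-fold, in Exp 1. Its Exp 2 difference was the third highest of 35375. Without cKO mouse 1 it was 2.47. In the authors' deposited value table it was 1.93, or 2.28 without the column of cKO mouse 1, a column that correlated at 0.343 with the array of that mouse while the other 11 correlated at 0.813 to 0.898. The difference of the genotype differences, Exp 1 minus Exp 2, was -2.70 for this probe and 0.84 to 1.20 for the others. None of the 7 passed for it in limma, where 0.00283% of kept probes did. The count was 1 of 7 at an unadjusted p under 0.05, which was this probe, beside 928 of all kept probes.

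**Figure D4:**
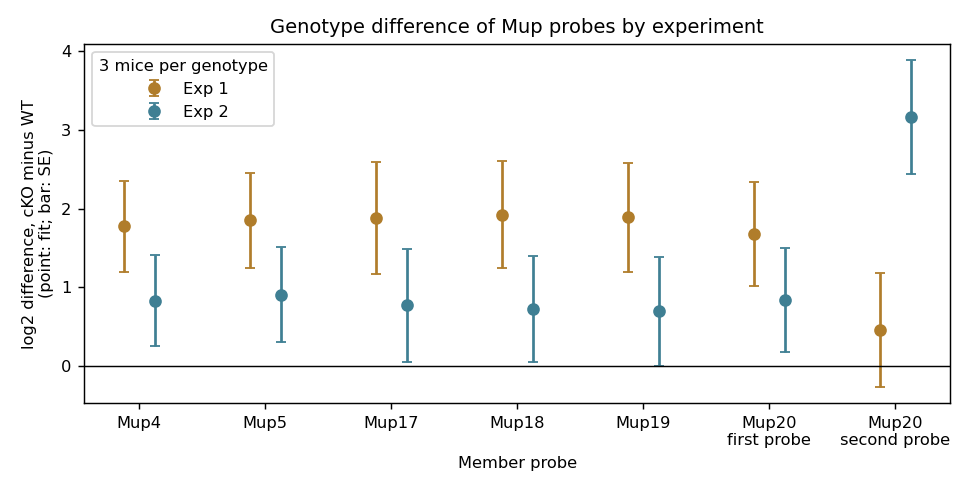
Fitted log2 difference, cKO minus WT, for the 7 kept Mup probes in Exp 1 and in Exp 2 (points; bars are SE; 3 mice per genotype in each experiment). For 6 probes the Exp 1 point lies higher (1.68 to 1.92 against 0.69 to 0.91), and for the second Mup20 probe the Exp 2 point lies higher (3.16 against 0.46).

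Slide changed sizes but not the direction of either average. With slide as a block the median over the Mup probes was -3.36 for Exp 1 minus Exp 2, and it was -3.06 within slide 1 and -3.73 within slide 2. With the block 7 of 7 passed in limma for Exp 1 minus Exp 2, beside 4517 of all 35375 kept probes. Within each slide some groups held 1 mouse, and most Mup probes lost that call. For cKO minus WT the median was 1.16 with the block, 1.45 within slide 1 and 0.48 within slide 2. The difference of the genotype differences was 1.25 with the block, 2.17 within slide 1 and -0.54 within slide 2, where cKO mouse 5 and WT mouse 1 were the only old mice.

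Other Mup genes on the array were also lower in Exp 1. Of 15 listed, 4 were found and kept, and 4 of 4 passed as lower in Exp 1, where 8.25% of kept probes did. They can read the same transcripts as the members and are no independent evidence. Mup3 differed by -3.30 (SE 0.39, limma adjusted p = 0.0019), Mup2 by -2.39 (SE 0.37, limma adjusted p = 0.0042) and Mup21, above background on 4 of 6 old mice, by -1.43 (SE 0.24, limma adjusted p = 0.0054). Mup6 was not well above background on any old mouse and was on all 6 young ones, at least 3.05-fold higher in Exp 2. It was kept through the young mice alone, so its place among the 4 that passed rests on old values below background. For genotype the 4 differed by 0.42 to 1.25, all higher in cKO, with Mup3 the largest (SE 0.39). None passed in limma, where 0.189% of all kept probes passed in either direction and 0.00565% as higher in cKO. With so few probes passing at all, this count cannot show that these genes were unchanged by genotype.

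The wider lipocalin family carries small fatty molecules in many fluids. Of 20 listed, 13 were kept, with a median of -0.16 for Exp 1 minus Exp 2. Of these 1 passed, as higher in Exp 1, where 11.4% of all kept probes did. It was Orm1, an acute-phase carrier, at 0.66 (SE 0.20, limma adjusted p = 0.043). The 10 kept genes nearest the cluster, 5 on each side, were taken after the data were seen. Among them 2 passed as higher in Exp 1, Slc46a2 by 0.73 (limma adjusted p = 0.016) and Slc31a2 by 0.48 (limma adjusted p = 0.011), and none passed as lower. Of all kept probes 11.4% passed as higher and 8.25% as lower. The other 8 genes near the cluster ran from -0.04 to 0.41.

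Growth hormone and STAT5 signalling, which drives Mup transcription in liver, was read through 13 kept genes of 16, with a median of 0.11 for Exp 1 minus Exp 2. Of these 2 passed as lower and 2 as higher in Exp 1, where 8.25% and 11.4% of all kept probes did. Igf1, the main growth factor induced by growth hormone, differed by -0.65 (SE 0.16, limma adjusted p = 0.022). Ghr, the growth hormone receptor, differed by -0.62 (SE 0.17, limma adjusted p = 0.030). Prlr, the prolactin receptor, was higher by 0.75 (SE 0.11, limma adjusted p = 0.0036), as was Bcl6, a repressor of STAT5 targets named after its value was seen, by 0.51 (limma adjusted p = 0.037). Stat5a, and Stat5b, Jak2, Socs2 and Cish, which were named after their values were seen, ran from -0.19 to 0.28 and did not pass.

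Androgen, glucocorticoid and thyroid hormone signalling gave 14 kept genes of 18, with a median of 0.11. Of the 14, 2 passed as lower and 1 as higher in Exp 1, where 8.25% and 11.4% of all kept probes did. Lower in Exp 1 were Thrsp, a thyroid hormone target of lipid-making cells, by -2.32 (SE 0.48, limma adjusted p = 0.010), and Hsd11b1, which regenerates active glucocorticoid, by -0.90 (SE 0.26, limma adjusted p = 0.037). Srd5a1, which makes dihydrotestosterone, was higher by 0.59 (SE 0.14, limma adjusted p = 0.020).

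Markers of tissues known to make Mup proteins were read through a liver and a gland list. Of 18 liver genes on the array 11 were kept, and Apoa1, Apob, Apoh, Ttr, Fga, Fgb and Fgg were not. The summed liver list (mean log2 level) ran from -2.02 to -1.75 in old WT, -2.28 to -1.23 in old cKO, -1.29 to -1.03 in young WT and -0.93 to -0.84 in young cKO mice. Of the 11, 4 passed as lower and 1 as higher in Exp 1, where 8.25% and 11.4% of all kept probes did. The list median was -0.39, with 9 of the 11 lower and 2 higher in Exp 1 before any threshold. The level of Cyp2e1 alone ran from -3.91 to 4.57 over the 12 mice, so it weighs heavily on the summed list. Ahsg and Apoa2, named after their values were seen, differed by 0.68 and -0.31 and did not pass. Ahsg was above background on 4 of 6 old and 3 of 6 young mice.

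Alb, the gene of serum albumin, was not well above background on any old mouse. It read 4.18 to 17.0 units there and 13.6 to 60.4 units in the young mice, 5 of 6 of them above background. That made it at least 1.55-fold higher in Exp 2. Alb was kept through the young mice alone, so its call as lower rests on old values below background. Cyp2e1, a cytochrome of liver and fat, read 24.3 to 1470 units in old and 676 to 13159 units in young mice and differed by -4.04 (SE 0.92, limma adjusted p = 0.015). Apoc3, above background on 4 of 6 old mice, differed by -0.74 (limma adjusted p = 0.014). Hp and Cyp3a11, named after their values were seen, differed by -1.20 (limma adjusted p = 0.027) and 0.85 (limma adjusted p = 0.026), the latter above background on 5 of 6 old mice. Over the 12 mice the liver list correlated with the mean of the 6 concordant Mup probes at 0.940, and at 0.813 after the group means were subtracted. After that subtraction the hair shaft, adipocyte and keratinocyte lists stood at 0.715, 0.661 and -0.727. The androgen, glucocorticoid and thyroid list stood at 0.604, sebaceous gland at -0.431, growth hormone at -0.536 and lipocalins at 0.049. In cKO mouse 5 the liver (-2.28), hair shaft (4.20) and adipocyte (1.26) lists were lowest and keratinocyte (6.83) highest of all mice. The part of liver markers in the Mup differences was not tested.

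Salivary, lacrimal and mammary gland markers gave 6 kept genes of 18 on the array. Of these 3 passed as lower and 1 as higher in Exp 1, where 8.25% and 11.4% of all kept probes did. Milk and saliva genes such as Csn2, Wap, Smr3a and Bpifa2 were not kept. Klk1, a glandular kallikrein above background on 1 of 6 old and 6 of 6 young mice, differed by -2.54 (SE 0.35, limma adjusted p = 0.0029), Amy1, salivary amylase, by -1.22 (SE 0.19, limma adjusted p = 0.0040) and Aqp5, a water channel of secreting glands, by -1.72 (SE 0.36, limma adjusted p = 0.011). Scgb2b27, a secretoglobin named after its value was seen, was higher in Exp 1 by 0.92 (limma adjusted p = 0.049). The summed list ran from -2.45 to -1.93 in the old mice and from -1.54 to -0.89 in the young ones, without overlap. It correlated with the mean of the 6 concordant Mup probes at 0.815 over the 12 mice, and at 0.125 after the group means were subtracted. Its part in the Mup differences was not tested.

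Skeletal muscle genes had the lowest median of the lists fitted. Of 14 genes, 14 passed as lower in Exp 1, where 8.25% of all kept probes did, with a median of -6.13. Tnnt3, Ckm and Actn3 differed by -7.49, -6.62 and -7.31 (limma adjusted p = 0.0049, 0.0048 and 0.0043), on probes above background in 4, 4 and 3 of 6 old mice. Mylpf, above background on no old mouse and kept through the young mice alone, has only a bound, at least 8.74-fold higher in Exp 2. Its call rests on old values below background. The summed muscle level was -4.02 to -2.81 in old WT, -2.78 to 0.69 in old cKO, -0.88 to 5.73 in young WT and 4.65 to 5.90 in young cKO mice. Within groups the order of mice was not that of the Mup probes. WT mouse 5, at -0.88 for muscle against 4.84 and 5.73 in the other young WT mice, had a mean Mup level of 4.35 over the 6 concordant probes, against 2.82 and 4.66. In cKO mice 2, 5 and 6 muscle was -2.78, 0.69 and 0.48 and the mean Mup level 2.79, 0.56 and 2.68. In the genotype comparison 14 of 14 muscle genes were higher in cKO, with a median of 2.51, and 0 passed, where 0.189% of all kept probes did. Over the 12 mice the muscle list correlated with the mean of the 6 concordant probes at 0.770, and at -0.319 after the group means were subtracted. The part of muscle in the Mup differences was not tested beyond these values.

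Cell types of skin itself were read through 4 lists. Of all kept probes 11.4% passed as higher and 8.25% as lower in Exp 1. Sebaceous gland genes had a median of 0.53, with 4 of 11 passing as higher in Exp 1 and 0 as lower, led by Scd3 at 0.82 (limma adjusted p = 0.0092) and Krt79 at 0.77 (limma adjusted p = 0.011). Adipocyte genes had a median of -1.20, with 2 of 11 passing as lower (Lipe -0.97, limma adjusted p = 0.026, and Cfd -1.60, limma adjusted p = 0.033) and 1 as higher (Cidea 1.19, limma adjusted p = 0.015). Hair shaft keratins had a median of -1.35 and 5 of 9 passed as lower, and keratinocyte genes had a median of 0.51 and 6 of 9 passed as higher and 1 as lower. The defining epidermal and hair markers were well above background on every array. For genotype, 0 of the 111 listed genes outside the Mup family passed in limma, where 0.189% of all kept probes did. Of the 111, 17 had an unadjusted p under 0.05, beside 3565 of all 35375 kept probes. For the difference of the genotype differences 0 of the 111 passed, where 0.00283% of all kept probes did. There 10 of the 111 had an unadjusted p under 0.05, beside 928 of all kept probes.

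**Figure D5:**
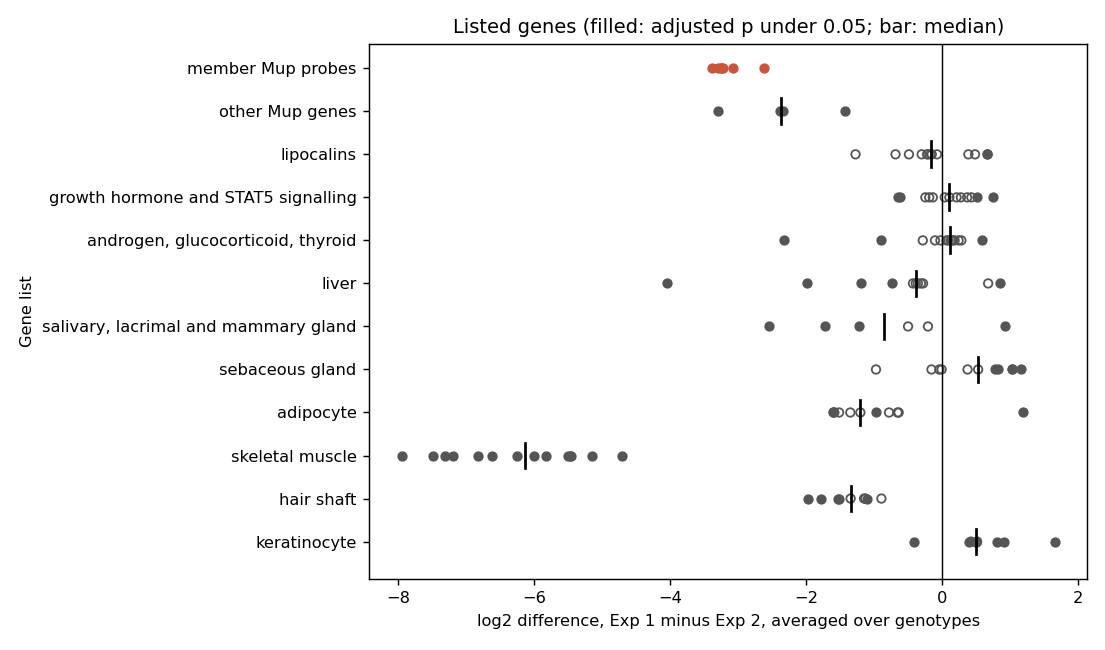
Log2 difference, Exp 1 minus Exp 2, of each kept gene of the lists and of the 7 Mup probes (points; filled where the limma adjusted p was under 0.05; bar, list median). The Mup probes lie at -3.38 to -2.62, muscle genes further left around -6.13, and the hormone signalling lists near 0.

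Among 15319 other genes, those most like the mean of the 7 Mup probes were ranked by Pearson correlation over the 12 mice. The highest were Alb (0.933), Mef2d (0.928), Olfr685 (0.922), Myrfl (0.922), Cyp2e1 (0.920), Galnt15 (0.920), Krt84 (0.913) and Chst1 (0.911). Alb and Cyp2e1 also stood in the liver list. After the group means were subtracted the highest were Plekhh2 (0.954), Cyp2c65 (0.920), Slc5a6 (0.919), Tspoap1 (0.894), Mical2 (0.891), Tmem38b (0.885), Adcyap1r1 (0.881) and Slc25a42 (0.864), and no gene was in both groups of 8. Some of these genes lay near the background. Alb and Myrfl were well above it on 5 of 12 arrays, Olfr685 and Plekhh2 on 8, Cyp2c65 on 3 and Tmem38b on 11. For the second Mup20 probe alone, a ranking added after the data were seen, the highest included Timd4 (0.921), Pitx1 (0.885), Aqp4 (0.872), Rab9b (0.869), Ankrd2 (0.864), Stk32a (0.856) and Fbp2 (0.856). Ankrd2 and Fbp2 are known from skeletal muscle. Over the 12 mice the muscle list correlated with the second Mup20 probe at 0.809, and at 0.583 after the group means were subtracted. Muscle level and probe level were 5.90 and 4.14 in cKO mouse 1, 4.65 and 1.67 in cKO mouse 3, and 5.73 and -0.10 in WT mouse 6. The part of muscle in this probe was not tested. The mice share groups and experiments, so these values order genes by likeness and nothing more.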

How the data were processed

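Total RNA of skin from 12 mice was read on 12 one-colour arrays, 3 per genotype and experiment. Intensities (background-subtracted processed signals) were made, per the file headers, by Feature Extraction 11.5.1.1, as were the 0 or 1 flags for spots above background, saturated or outlying. The authors deposited a table of log2 values, used as an alternative only; its columns share nearly the same median (6.76 to 6.77), and the sources used here do not give its background correction, normalization or centring. The submitters' processing notes name limma.

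Outlier spots were left out, spots averaged per probe, log2 signals scaled to each array's 75th percentile, and probes kept when well above background on 3 or more arrays. Accessions were matched to RefSeq, naming 49.4% of 55681 probes. In R 4.3.3, limma 3.58.1 fitted 4 group means (8 residual degrees of freedom) to every kept probe; tests were two-sided with Benjamini-Hochberg adjustment over all of them at 0.05. The script was tested on simulated data. Errors are SD for means and SE for differences, and the number of arrays limits precision. Promoter windows were aligned in Biopython 1.88. The members and lists were chosen with earlier results of these data known. Named were all member probes, Sox4, up to 3 genes per list by smallest p in each of the experiment and genotype contrasts, and the 8 most similar genes per ranking; a few genes that these rules name are not reported here. Alternatives were another scaling, normexp with quantile normalization, the deposited table, other filters, 1 probe per gene, slide, mouse number and leaving out each mouse. Nothing in the labels says the mice came from separate litters or cages, so p-values measure the spread between these mice.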

Additional observations from a re-analysis of the deposited data

How the results depend on the processing

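Over 24 alternatives the median Mup difference between experiments stayed between -3.73 and -2.90 and that between genotypes between 0.48 and 1.67, and every Mup probe was higher in Exp 2 and in cKO in 24 of 24. Most of the 7 Mup probes lost their call between experiments within slides, where some groups held 1 mouse. With mouse number as a block 0 of 7 passed, where 0 of all kept probes did. None of the Mup probes of the other 21 alternatives lost its call. The difference of the genotype differences was less steady: its median was 0.94, 0.59 to 1.59 with 1 mouse left out, 2.17 within slide 1 and -0.54 within slide 2, where it turned for Mup4 (-0.35), Mup5 (-0.42), Mup17 (-0.62), Mup18 (-0.44), Mup19 (-0.54) and the first Mup20 probe (-0.58). Slide 2 has 5 arrays.

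The number of probes that passed between experiments, 6933, became 12599 with no filter, 3269 with 1 probe per gene (fewer probes tested), 4517 with slide as a block, 2 within slide 1, 2075 within slide 2 and 4247 to 6746 with 1 mouse left out. For genotype (67) the counts were 20 in the authors' deposited table, 34 with no filter, 42 with slide as a block, 7 within slide 1, 0 within slide 2 (4553 unadjusted, that is at a p under 0.05 without adjustment) and 11 to 132 with 1 mouse left out. For the difference of the genotype differences (1) limma gave 4 within slide 1, 0 to 5 with 1 mouse left out, and 0 with normexp, in the deposited table with or without cKO mouse 1, without a filter, with 6 arrays, within slide 2 and with the slide block (972, 435, 949, 1440, 835, 4231 and 900 unadjusted). Listed genes outside the Mup family that passed between experiments (50) numbered 27 in the deposited table, 0 within slide 1 (39 unadjusted) and 31 to 63 with 1 mouse left out. The deposited table without cKO mouse 1 was chosen after the data were seen.

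Mouse numbers did not pair the samples: same-numbered WT and cKO mice correlated at -0.296 to 0.085, and 2 of 6 pairs were in the same experiment. With the number as a replicate block the Mup medians were -3.61, 1.32 and 1.64, and 0 probes passed between experiments (7509 unadjusted), 4 for genotype, 0 for the difference of differences (1044 unadjusted) and 0 listed genes between experiments (54 unadjusted). The causes of these shifts were not tested. Signal over background limited Alb, Mup6, Lcn10 and Mylpf, which have only a bound in Exp 1, and the second Sox4 probe, which has only a bound in cKO.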
